A study of Rattus norvegicus with 24 samples.

Results

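The granins are a family of acidic proteins that neurons and endocrine cells store in dense-core vesicles together with neuropeptides and hormones. Chga, Chgb and Scg2 help to form the vesicle and its cargo and are cut into smaller peptides, secretoneurin among them from Scg2. Scg3 tethers granin cargo to the vesicle membrane, and Scg5 (also called 7B2) is a chaperone of the prohormone convertase Pcsk2, which cuts precursors inside the vesicle. In the hippocampus these proteins are made by neurons, and Scg2 is known as a gene whose transcription follows neuronal activity.

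The family was defined by annotation: a probe was a member when its gene symbol was Chga, Chgb or Scg followed by a digit. This rule gave 5 of the 12978 genes named on the arrays, Chga, Chgb, Scg2, Scg3 and Scg5, with 1 of the 22226 probes each. Each of the 5 was detected on all 24 arrays and passed the filter on dim probes, which kept 11487 probes. Scg2 and Scg5 had been singled out beforehand with results of these data known. The differences in which they stood out are therefore given as values with their errors and without a test.

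Hippocampal RNA was taken from 24 rats in 6 groups of 4 animals, and 1 array was run per animal. The dwarf rats (dw/dw, strain HsdOla:DWARF-dw-4) are deficient in growth hormone (GH), and heterozygous (HZ) rats served as controls. Treatment started on postnatal day 35. Dwarf rats received 300 µg GH or saline under the skin, and HZ rats received saline. The tissue was taken after 7 days, at an age of 42 days, or after 30 days, at an age of 65 days. Every group thus received injections, and no HZ group received GH. GH deficiency in these rats is inherited and affects the whole body.

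The share of detected probes ran from 44.9% to 51.2% per array. Rats of the 2 time points were run on separate slides, so age, duration of treatment and slide cannot be told apart. Each slide carried the saline-treated dwarfs at positions 1 to 4, the GH-treated dwarfs at 5 to 8 and the HZ rats at 9 to 12, so group and a position effect shared by a block cannot be told apart. Of 12 listed neuronal markers 11 were named on the array, and all 11 were detected on all 24 arrays. Markers of hippocampal granule cells were uneven: Calb1 had values of 10.52 to 10.90 on the log2 scale of normalized signal and C1ql2 of 7.30 to 7.98, Prox1 (6.10 to 6.22) and Pdzd2 (6.10 to 6.17) were near background, and Tdo2 and Lct were not detected. Of 9 markers of the anterior pituitary and of chromaffin cells, tissues rich in granins, 6 were named on the array. Prl, Tshb, Lhb, Th and Dbh were not detected, and Pomc had log2 values of 6.15 to 6.32, near background. In such whole tissue, fewer cells of a type and less RNA per cell cannot be told apart.

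The starts of Scg2, Scg5 and Chgb are shown here because the levels of Scg2 and Chgb went along with those of Scg5 from rat to rat, as described further on. For Chgb this likeness was weaker at 30 days. The sequences are those of RefSeq on assembly GRCr8, from 250 bases before to 50 bases after the annotated start, and 4 of the 5 members matched that promoter table. Capitals mark the cyclic AMP response element (CRE) TGACGTCA or its shorter core TGACG, each searched on both strands. Scg2 lies at chr9:88256817-88257116 (minus strand), Scg5 at chr3:121042746-121043045 (minus strand) and Chgb at chr3:140496462-140496761 (plus strand).
Scg2: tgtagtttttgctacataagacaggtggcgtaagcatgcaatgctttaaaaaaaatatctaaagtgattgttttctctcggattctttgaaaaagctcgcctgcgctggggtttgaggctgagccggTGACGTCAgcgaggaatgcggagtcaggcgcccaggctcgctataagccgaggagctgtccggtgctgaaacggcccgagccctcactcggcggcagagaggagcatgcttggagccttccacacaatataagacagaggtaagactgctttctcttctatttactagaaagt
Scg5: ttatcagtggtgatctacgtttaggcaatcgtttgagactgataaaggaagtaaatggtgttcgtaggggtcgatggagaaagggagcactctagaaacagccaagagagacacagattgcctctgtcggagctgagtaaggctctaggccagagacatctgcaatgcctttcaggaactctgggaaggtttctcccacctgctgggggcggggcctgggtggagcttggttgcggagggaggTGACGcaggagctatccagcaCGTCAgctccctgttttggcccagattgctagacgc
Chgb: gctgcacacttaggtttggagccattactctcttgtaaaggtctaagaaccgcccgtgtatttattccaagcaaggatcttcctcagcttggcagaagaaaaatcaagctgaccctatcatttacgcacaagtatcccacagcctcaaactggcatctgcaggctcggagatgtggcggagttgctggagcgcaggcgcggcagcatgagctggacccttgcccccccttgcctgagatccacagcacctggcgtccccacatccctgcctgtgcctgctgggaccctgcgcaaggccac
The Scg2 window held 1 full CRE, which began 123 bases before the start. Of 33469 promoter windows of the same length, 612 (1.83%) held that motif. The Scg5 window held no full CRE and 2 cores, one beginning 7 bases before the start and the other 15 bases into the transcript. The core is common, occurring in 7097 windows (21.2%), those inside a full CRE included. The Scg3 window (chr8:85322435-85322734, minus strand) held 1 core, beginning 69 bases before the start, and the Chgb window held none. These matches describe letters in the windows, and binding was not measured.

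Scg2, the precursor of secretoneurin, had lower values in dwarf than in HZ rats at both time points, with or without GH. In the HZ saline rats at 7 days, replicates 1 to 4 had log2 values of 7.45, 7.67, 7.52 and 7.56 (mean 7.55 ± 0.09, SD, n = 4). The dw/dw saline rats had 7.32, 7.43, 7.02 and 7.39 (mean 7.29 ± 0.18), and the dw/dw GH rats 7.11, 7.49, 7.03 and 7.42 (mean 7.26 ± 0.22). All 4 dw/dw saline rats lay below the lowest HZ rat, the closest by a narrow margin, while 1 GH-treated dwarf overlapped the HZ range. Replicate 3 was the lowest rat in both dwarf groups.

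At 30 days the same order held at a slightly higher level. The HZ saline rats had Scg2 values of 7.58, 7.55, 7.88 and 7.66 (mean 7.67 ± 0.15). The dw/dw saline rats had 7.63, 7.35, 7.34 and 7.40 (mean 7.43 ± 0.14), and the dw/dw GH rats 7.31, 7.29, 7.58 and 7.49 (mean 7.42 ± 0.14). Here 6 of the 8 dwarf rats lay below every HZ rat, and 1 rat of each dwarf group fell inside the HZ range. At 7 days the corresponding count was 7 of 8. Ordered by group mean, Scg2 was lowest in the GH-treated dwarfs at 7 days and highest in HZ rats at 30 days. The steps between neighbouring groups in that order were at most 0.13, beside group SDs of 0.09 to 0.22, and the values of neighbouring groups overlapped at every step.

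The Scg2 difference between dw/dw saline and HZ saline was -0.26 at 7 days and -0.24 at 30 days (log2, SE 0.109 each), a level 0.836 and 0.848 times that of the controls. Over the 4 dwarf and 2 HZ groups it was -0.26 (SE 0.067). No test is attached to these values, since Scg2 was chosen with such values known. For scale, 0% of the 11487 probes passed the threshold (limma, Benjamini-Hochberg adjusted p under 0.05) in any comparison of dwarf with HZ rats, although 1102 had an unadjusted p under 0.05 in the comparison of all dwarf with all HZ rats. Of all tested probes, 1.23% had every saline-treated dwarf below every HZ rat at 7 days, as Scg2 did.

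The Scg2 difference depended on how the array position was treated. With a linear trend along the positions in the model, the difference of all dwarf from all HZ rats was -0.15 with an SE of 0.184. That of dw/dw saline from HZ rats became -0.11 at 7 days, -0.09 at 30 days and -0.10 averaged. Without replicate 3 of the 7-day dw/dw saline rats, the difference at 7 days was -0.17. With each other array left out in turn, the difference of all dwarf from all HZ rats lay between -0.28 and -0.22. The separation of Scg2 values also depended on the scaling. In the deposited scanner signals dw/dw saline and HZ rats overlapped at 7 days (190 to 272 and 204 to 277). They also did at 30 days (194 to 294 and 232 to 302). After scaling each array on its median, 4 of the 8 dwarf rats at 7 days and 5 of 8 at 30 days lay below every HZ rat.

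**Figure D1:**
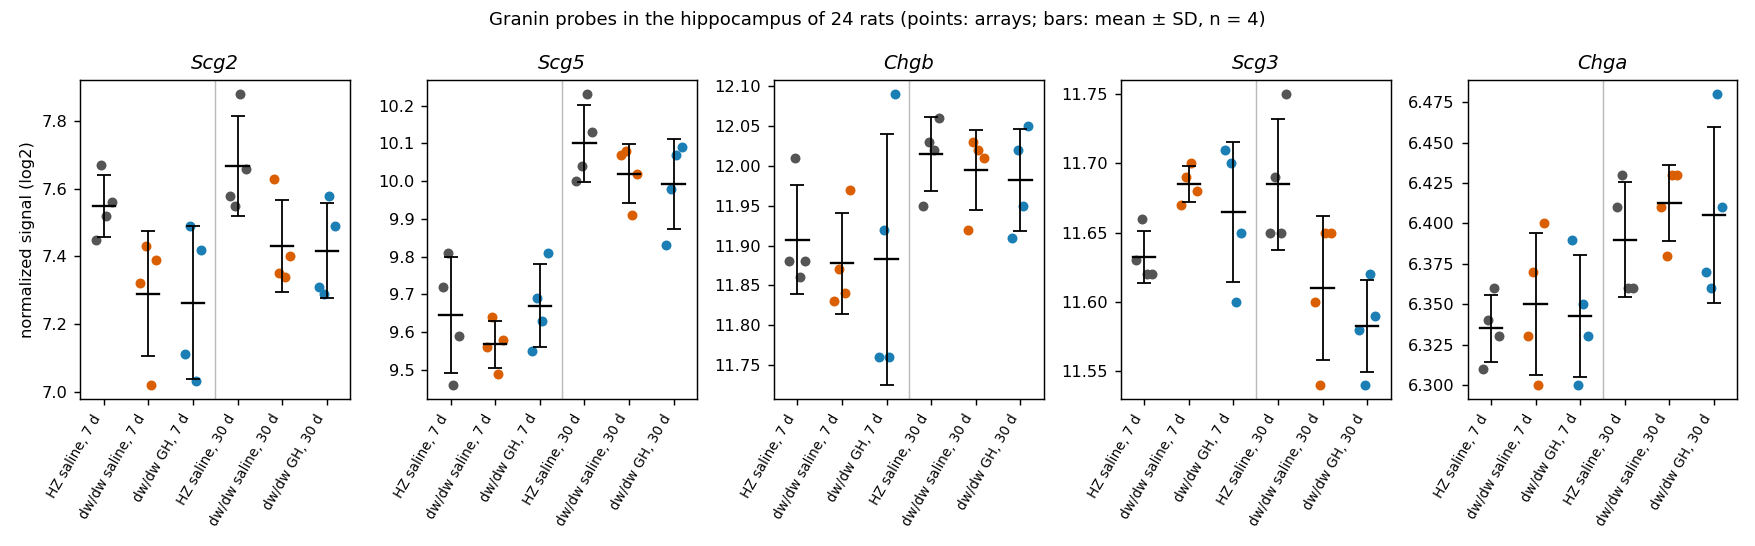
Normalized log2 signal (vertical axis, a separate scale for each gene) of the 5 granin probes in each of the 24 rats, by group, with the 7-day groups to the left and the 30-day groups to the right of the grey line. Points are arrays and bars are mean ± SD (n = 4). In the Scg2 panel the dwarf groups have lower means than the HZ group at both time points, and in the Scg5 panel all 12 arrays at 30 days (9.83 or more) lie above all 12 at 7 days (9.81 or less).

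Scg5, the chaperone of Pcsk2, differed by time point and little by genotype. At 7 days the HZ saline rats had log2 values of 9.72, 9.81, 9.46 and 9.59 (mean 9.64 ± 0.15), and the dw/dw saline rats 9.56, 9.64, 9.49 and 9.58 (mean 9.57 ± 0.06). The GH-treated dwarfs had 9.55, 9.69, 9.63 and 9.81 (mean 9.67 ± 0.11). These 3 groups overlapped one another throughout. At 30 days the HZ saline rats had 10, 10.04, 10.23 and 10.13 (mean 10.10 ± 0.10). The dw/dw saline rats had 10.07, 10.08, 9.91 and 10.02 (mean 10.02 ± 0.08), and the GH-treated dwarfs 9.83, 9.98, 10.07 and 10.09 (mean 9.99 ± 0.12). The 30-day groups again overlapped one another, and each lay wholly above its 7-day counterpart. That held in all 3 groups for 0.313% of the tested probes.

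The Scg5 difference between 30 and 7 days was 0.46 in HZ rats, 0.45 in saline-treated dwarfs and 0.32 in GH-treated dwarfs (log2, SE 0.073 each). Averaged over the 3 groups it was 0.41 (SE 0.042), a level 1.33 times that at 7 days. In order of the group means, the step from the highest 7-day group to the lowest 30-day group was 0.32, and every other step was at most 0.08. Values at 30 days wholly above those at 7 days over all 12 against 12 arrays were found for 16 probes (0.139%). Nothing is read from this share for Scg5, which was chosen with such differences known.

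The gap between the time points in Scg5 was narrow and depended on the scaling. In the deposited scanner signals the ranges overlapped within the dw/dw saline rats (809 to 1050 at 7 days and 859 to 1280 at 30 days) and within the GH-treated dwarfs (824 to 1100 and 959 to 1040), but not within the HZ rats (711 to 957 and 1020 to 1270). After scaling each array on its median, 9 of the 12 arrays at 30 days lay above every array at 7 days, and in the authors' series matrix 10 of 12. The series matrix placed the median of all probes 0.135 lower at 30 days. There the Scg5 difference was 0.26, or 0.40 relative to that median.

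Red blood cell, myelin and interneuron genes also differed between the time points, and their part in the Scg5 difference was not tested. In the average over groups 15.7% of all tested probes passed the threshold, 7.83% as higher. The 5 measured red blood cell markers were all lower at 30 days (3 passed the threshold), and their mean log2 level was 9.46 to 10.06 over the arrays at 7 days and 8.58 to 9.23 at 30 days. All 12 oligodendrocyte markers were lower (6 passed), with a mean level of 9.16 to 9.61 and then 9.02 to 9.22. All 12 markers of meninges and fibroblasts were lower (4 passed), at 7.71 to 8.61 and then 7.49 to 8.21. All 10 interneuron markers were higher (4 passed), at 8.53 to 8.86 and then 8.80 to 8.97. Of the 11 general neuronal markers 7 were higher and 4 lower (1 passed, higher), at 10.28 to 10.40 and then 10.33 to 10.45. Detection on all 24 arrays held for 3 of the 5 red blood cell, 11 of the 12 oligodendrocyte and 8 of the 12 meningeal and fibroblast markers. It held for all interneuron and neuronal markers. Hba-a2 and Alas2 of the red blood cell list were not detected. Between dwarf and HZ rats, 0 markers of any list passed the threshold, but some lists lay to one side where Scg2 was lower.

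In dw/dw saline against HZ rats at 7 days, all 12 meningeal and fibroblast markers were lower, with a median of -0.25 (log2) and 5 at an unadjusted p under 0.05. Their mean level was 7.74 to 7.96 in these dwarfs and 7.71 to 8.61 in HZ rats. At 30 days 11 of the 12 lay in the other direction, with a median of 0.16 and mean levels of 7.5 to 8.03 and 7.49 to 7.67. The 5 red blood cell markers were also lower in these dwarfs at 7 days (median -0.26, mean level 9.46 to 9.61 beside 9.49 to 9.99), as were all 3 endothelial markers (median -0.09). At 30 days 4 of the 5 and 2 of the 3 were lower, with medians of -0.05 and -0.01. The neuronal markers had 5 genes higher and 6 lower at 7 days, and 4 higher and 7 lower at 30 days (medians -0.004 and -0.06). All 9 pyramidal cell markers were higher in these dwarfs at 7 days (median 0.04, mean level 7.86 to 7.91 beside 7.69 to 7.87). At 30 days 3 of them were higher and 6 lower (median -0.02). Of the 10 interneuron markers 3 were higher and 7 lower at 7 days, and 7 higher and 3 lower at 30 days (medians -0.03 and 0.05). The part of these markers in the Scg2 difference was not tested.

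Scg3, the membrane tether of granin cargo, varied within narrow limits after quantile normalization. Over all 24 arrays its values then ran from 11.54 to 11.75, with a residual SD of 0.041. Scaling each array on its median instead gave wider ranges, 11.25 to 11.93 at 7 days and 11.39 to 11.82 at 30 days. With quantile normalization the HZ saline rats had 11.63, 11.66, 11.62 and 11.62 at 7 days and 11.65, 11.69, 11.65 and 11.75 at 30 days. The dw/dw saline rats had 11.67, 11.69, 11.70 and 11.68 at 7 days and 11.60, 11.54, 11.65 and 11.65 at 30 days. The GH-treated dwarfs had 11.71, 11.70, 11.60 and 11.65 at 7 days and 11.58, 11.54, 11.62 and 11.59 at 30 days. Dwarf saline rats thus lay above HZ saline rats at 7 days, with no overlap (as for 1.58% of all tested probes in that direction), and mostly at or below them at 30 days. The GH-treated dwarfs lay wholly below the HZ rats at 30 days (-0.10, SE 0.028), as 1.77% of all tested probes did. This separation depended on the scaling. After scaling each array on its median the difference was -0.07, and 3 of the 8 dwarf rats lay below every HZ rat at 30 days.

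The Scg3 difference between dw/dw saline and HZ saline was 0.06 at 7 days and -0.07 at 30 days (log2, SE 0.028 each). The change of this difference from 7 to 30 days was -0.13 (SE 0.040), with a 95% interval of -0.21 to -0.05 before adjustment. It did not pass the threshold (limma adjusted p = 0.99 over 11487 probes). Of all probes 0% passed in that comparison and 457 had an unadjusted p under 0.05. Since this pair of time points lay on separate slides, a change of the genotype difference and a change of a position effect between slides cannot be told apart.

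Chgb, a core cargo granin, had values of 11.76 to 12.09 over the 24 arrays, and its groups overlapped at each time point. At 7 days the group means were 11.91 ± 0.07 for HZ rats, 11.88 ± 0.07 for dwarfs on saline and 11.88 ± 0.16 for dwarfs on GH. They were 12.02 ± 0.05, 12 ± 0.05 and 11.98 ± 0.06 at 30 days. The mean at 30 days was higher in each of the 3 groups, by 0.11 (SE 0.033) on average, but this direction turned with the normalization. In the series matrix the same difference was -0.07, or 0.06 relative to the shifted median of all probes.

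Chga was the dimmest member, with log2 values of 6.30 to 6.48, close to the background where the offset of 16 draws differences towards 0. Its mean was 6.34 ± 0.03 over the 12 arrays at 7 days and 6.40 ± 0.04 over those at 30 days (SD). The difference averaged 0.06 (SE 0.015) and was 0.13 without background correction. Little can be said of the size of a change at such low signal.

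**Figure D2:**
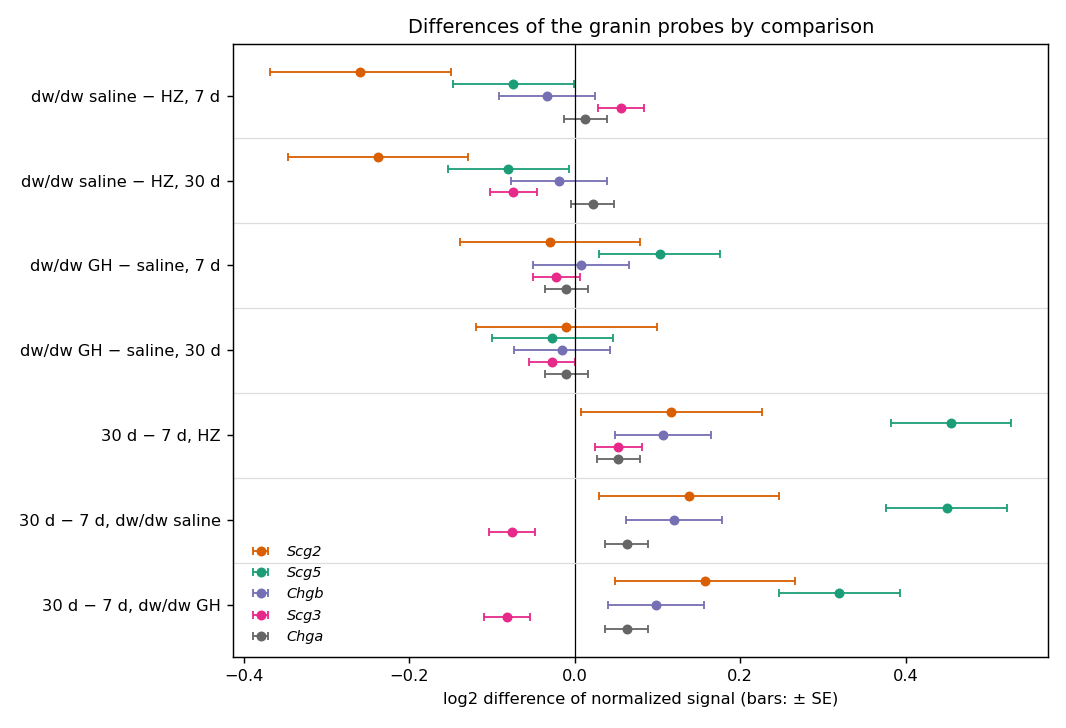
Log2 differences (horizontal axis) of the 5 granin probes in 7 comparisons, with bars of ± SE (limma, 24 arrays). Scg2 stands at -0.26 and -0.24 in the comparisons of dw/dw saline with HZ rats, the points of the GH comparisons lie between -0.03 and 0.10, and Scg5 lies at 0.32 to 0.46 in the comparisons of the time points.

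GH treatment of dwarf rats moved no granin probe past the threshold. For Scg2 the difference between GH and saline in dwarfs was -0.03 at 7 days and -0.01 at 30 days (SE 0.109 each). Averaged over both it was -0.02 (SE 0.077), with a 95% interval of -0.18 to 0.14 (limma adjusted p = 1). The GH and saline dwarfs had nearly the same Scg2 means, and the interval leaves room for differences in either direction.

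For Scg5 the GH difference was 0.10 at 7 days and -0.03 at 30 days (SE 0.073 each, adjusted p = 1 for both in limma). The change of this GH difference between the time points was -0.13 (SE 0.104, 95% interval -0.35 to 0.09, limma adjusted p = 0.98). The GH differences of Chgb, Scg3 and Chga lay between -0.03 and 0.01 at either time point, each with an adjusted p of 1 in limma. Over all probes, 0% passed the threshold for GH against saline at 7 days, at 30 days or averaged. The probes with an unadjusted p under 0.05 numbered 534, 388 and 335 in the same order.

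Apart from the groups, Scg5 went up and down with Scg2 from rat to rat and, mostly at 7 days, with Chgb. Over deviations of the 24 arrays from their group means, Pearson's r was 0.64 between Scg2 and Scg5, and it was 0.57 within the 7-day arrays and 0.74 within the 30-day arrays. Among 7982 other named genes, Scg5 stood 57th in likeness to Scg2 and Scg2 stood 66th in likeness to Scg5. Chgb and Scg5 had an r of 0.60 (0.72 and 0.38 by time point). Scg5 stood 103rd in likeness to Chgb, and Chgb 121st in likeness to Scg5. Chgb and Scg2 had an r of 0.45, with 0.72 at 7 days and -0.18 at 30 days, so their likeness was not shared by both time points. Chgb stood 331st in likeness to Scg2, and Scg2 486th in likeness to Chgb. Scg3 and Scg5 showed none (r = -0.02), and Chga had values between -0.15 and 0.26 with the other members. These arrays share slides, positions and normalization, and the coefficients are descriptions. The share of probes detected on an array, also as a deviation, had an r of 0.07 with the Scg2 deviations and -0.27 with those of Scg5. For Chgb, Scg3 and Chga it was -0.31, -0.36 and -0.25. The part of this measure in the likeness between members was not tested.

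**Figure D3:**
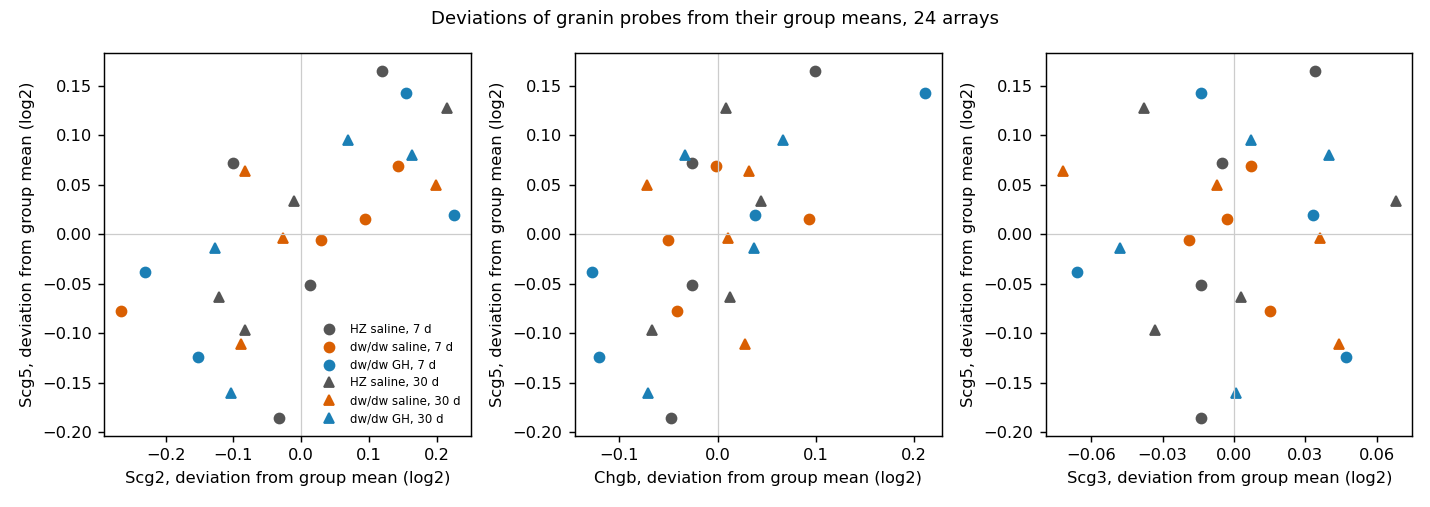
Deviations of log2 values from the group mean in each of the 24 arrays (circles 7 days, triangles 30 days), with Scg5 on the vertical axes and Scg2, Chgb or Scg3 on the horizontal axes. The points rise from lower left to upper right for Scg2 (r = 0.64) and Chgb (r = 0.60) and show no trend for Scg3 (r = -0.02).

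The genes whose levels followed each granin most closely over the 24 arrays were of mixed kinds. For Scg2 they were Psma1 (r = 0.89), a proteasome subunit, the scaffold protein Mpdz (0.87), Mcts1 (0.85), the ribosomal protein Rps13 (0.84), Mrpl1 (0.84) and Acot13 (0.83). After removal of the group means Psma1 (0.84) again led, followed by Bex1 (0.81), Mpdz (0.80), Cenpj (0.79), Acly (0.78) and Bet1 (0.78), a SNARE protein of the early secretory pathway. The first list for Scg2 was thus headed by genes that also followed it within groups.

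For Scg5 the closest genes over all arrays were Qdpr (0.89), which recycles a cofactor of monoamine synthesis, Epdr1 (0.87), Srp14 (0.85), Rpn1 (0.85), Ptma (0.84) and Cbx7 (0.84). Within groups r was 0.23 for Qdpr and Scg5, so that likeness lay between the time points. Within groups the closest were Rpl23 (0.82), Resp18 (0.81), Fdps (0.80), Vkorc1 (0.79), Cox19 (0.78) and the protein disulfide isomerase Pdia3 (0.77). Over all arrays their coefficients were, in the same order, -0.15, 0.82, 0.56, 0.45, -0.31 and 0.68. Resp18, a protein of the regulated secretory pathway in endocrine cells and neurons, was also the closest gene to Chgb over all arrays (0.83, and 0.76 within groups). Atp6ap1, an accessory subunit of the vesicular proton pump, followed Chgb with 0.77 over all arrays. For Scg3 the highest coefficient over all arrays was 0.68 (Pdcd2) and for Chga 0.75 (Pnn).

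The other genes of dense-core vesicles did not share 1 direction between the time points. Of 38 listed genes for vesicle formation, processing and release, 27 were measured, and 20 of them were higher and 7 lower at 30 days, averaged over groups. Their median difference was 0.020 (log2) beside -0.0014 over all tested probes. The threshold was passed by 3 as higher and 2 as lower, beside 15.7% of all probes in either direction. Higher were Pam, which amidates neuropeptides (0.28, SE 0.059), Atp6ap1 (0.23, SE 0.054) and the granin-like precursor Vgf (0.04, SE 0.011). Vgf had log2 values of 6.14 to 6.27, near background, where little can be said of the size of a change. Lower were the small GTPases Rab3d (-0.23, SE 0.035) and Rab2a (-0.13, SE 0.034), of which Rab2a acts in the making of dense-core vesicles. Pcsk2, the convertase that Scg5 serves, differed by 0.10 (SE 0.037) and did not pass. Vgf and, in this comparison, Pcsk2 were named after their values were seen.

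Among the neuropeptides and other vesicle cargo, 25 of 27 listed genes were measured, granins left aside. At 30 days 14 were higher and 11 lower, with a median of 0.004. The 4 that passed the threshold (of 25, beside 15.7% of all probes) were higher. Somatostatin (Sst) led with 0.39 (SE 0.072), its group means lying at 8.95 to 9.03 at 7 days and 9.36 to 9.42 at 30 days. Neuropeptide Y (Npy) differed by 0.22 (SE 0.054), prodynorphin (Pdyn) by 0.13 (SE 0.026) and Nppc, the precursor of C-type natriuretic peptide, by 0.08 (SE 0.024). Sst and Npy also belong to the interneuron markers given above.

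Genes induced by neuronal activity, the class in which Scg2 is often placed, showed no common direction either. Of 18 measured genes of 25 listed, 8 were higher and 10 lower at 30 days, and the threshold was passed by 3 as higher and 1 as lower, again beside 15.7% of all probes. The transcription factor Nr4a2 was higher (0.30, SE 0.046), as were Jun (0.08, SE 0.025) and Egr4 (0.03, SE 0.011), and the clock gene Per1 was lower (-0.16, SE 0.051). Egr4 had log2 values of 6.21 to 6.37, near background. In the comparison of all dwarf with all HZ rats, 7 of these genes were higher and 11 lower, with a median of -0.01. None passed there, Egr2 having the smallest unadjusted p (-0.14, SE 0.046, limma adjusted p = 0.27).

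Between dwarf and HZ rats, 17 of the 27 vesicle genes were higher and 10 lower in dwarfs, with a median of 0.012 beside 0.0018 over all tested probes, and 0 passed. Pam had the lowest value of the vesicle genes, at -0.21 (SE 0.063, limma adjusted p = 0.24). Its levels at 7 days were 7.27 ± 0.23 for HZ rats, 7.03 ± 0.15 for dwarfs on saline and 7.18 ± 0.10 for dwarfs on GH, with overlapping ranges. At 30 days they were 7.61 ± 0.16, 7.42 ± 0.09 and 7.30 ± 0.15. Rab3a, a GTPase of vesicle release, lay in the other direction at 0.22 (SE 0.085, limma adjusted p = 0.38). Of the 25 cargo genes 13 were higher and 12 lower, and 0 passed. Nmb (-0.10, SE 0.035), Nppc (0.06, SE 0.025), Plat (-0.12, SE 0.062) and Tac1 (-0.08, SE 0.046) had the smallest unadjusted p, with limma adjusted p from 0.31 to 0.60.

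**Figure D4:**
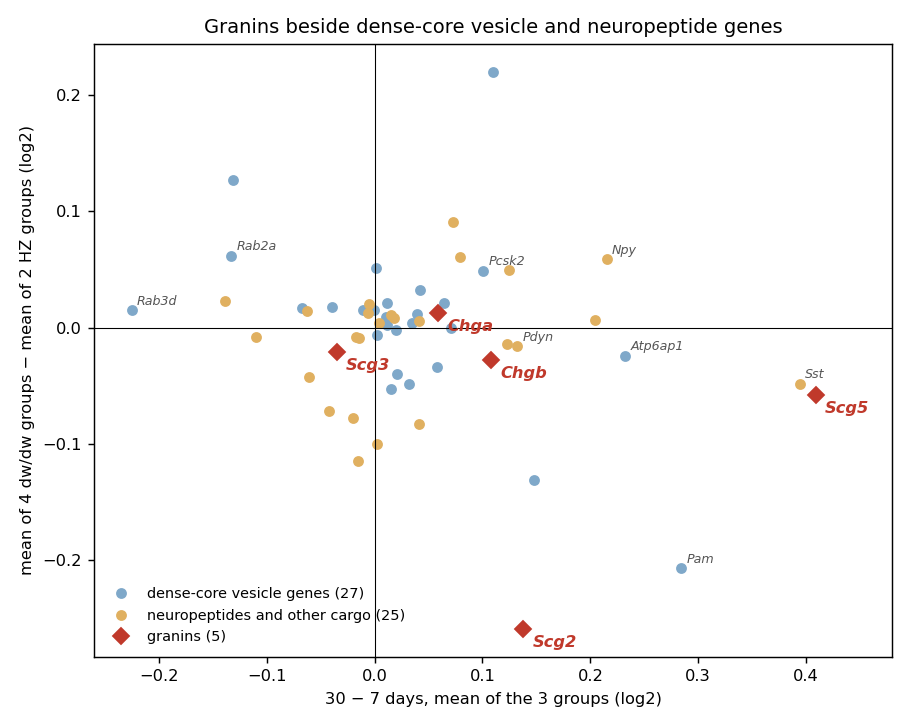
Log2 difference of 30 from 7 days, averaged over the 3 groups (horizontal axis), against the log2 difference of the 4 dwarf from the 2 HZ groups (vertical axis), for the 5 granins (diamonds), 27 dense-core vesicle genes and 25 neuropeptides and other cargo genes (circles). Scg2 lies lowest at -0.26, followed on that axis by Pam (-0.21), and Scg5 lies farthest right at 0.41, followed by Sst (0.39). Both axes come from the same 24 arrays.

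GH treatment left the same lists without a call. Averaged over both time points, 15 of the 27 vesicle genes were higher and 12 lower after GH, with a median of 0.001, and 13 of the 25 cargo genes were higher and 12 lower, with a median of 0.008. Pcsk2 had a difference of -0.10 (SE 0.046) and tachykinin 3 (Tac3) of -0.18 (SE 0.066), each with an adjusted p of 1 in limma. Of the red blood cell markers 4 of 5 were higher after GH, with a median of 0.52, and 0 passed.

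**Figure D5:**
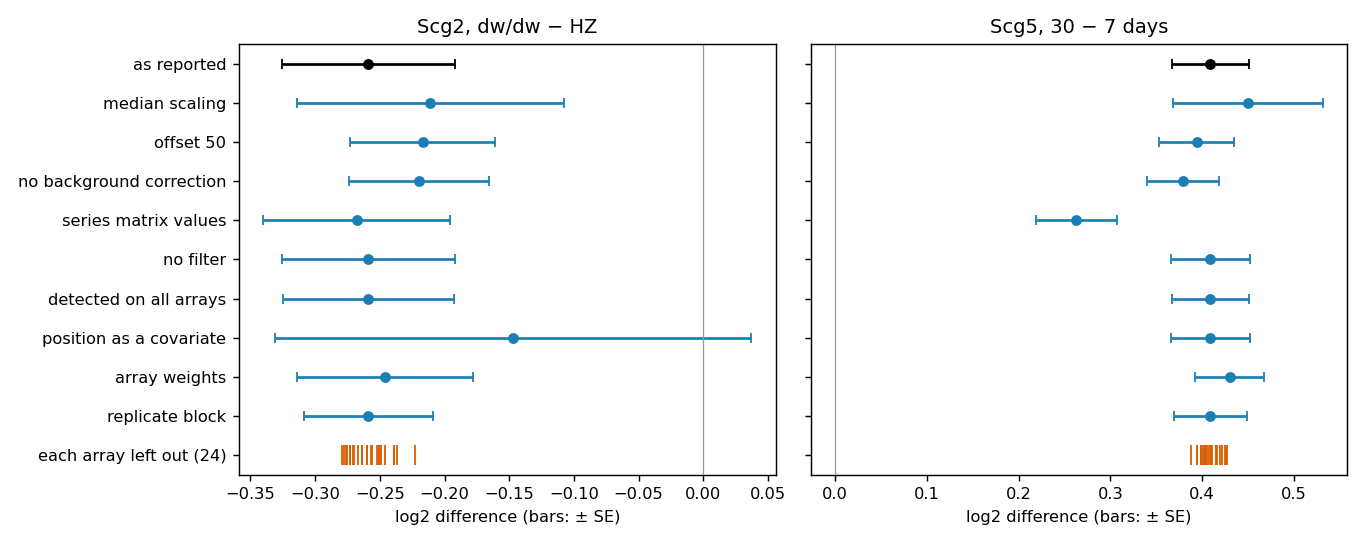
Log2 difference (horizontal axes, bars ± SE) of Scg2 between all dwarf and all HZ groups, left, and of Scg5 between 30 and 7 days, right, as reported and under each other way of processing, with 1 tick per array left out in the bottom row. For Scg2 the point moves from -0.26 to -0.15 with position as a covariate, where the bar of ± SE reaches past 0, and for Scg5 the series matrix gives the smallest value, 0.26.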

How the data were processed

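Illumina rat expression arrays were hybridised with hippocampal RNA, 1 array for each of 24 rats, and grouped by the source labels. Per the file headers, the deposited scanner table holds an average signal intensity and a detection p-value for each probe and array. The submitters' processing notes name GenomeStudio 2010.2 without saying for which step. The authors' series matrix, a second deposited table of intensity values, was an alternative. Its method is not given in the sources used here, and from the values it was background-subtracted and scaled within each slide.

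Signals were corrected by normexp on the detection p-values (offset 16), quantile normalized and put on a log2 scale (neqc, limma 3.58.1, R 4.3.3). Probes with a detection p-value under 0.05 on at least 4 arrays were tested (11487, 51.7%). Of all probes 13192 carried 1 gene symbol, 0 several and 9034 were unnamed here. The means of the 6 groups were fitted with lmFit and eBayes (18 residual degrees of freedom), two-sided, with Benjamini-Hochberg adjustment over all tested probes at 0.05. P-values set a difference against the spread between rats of the same group, pooled over the 6 groups, and precision is limited by the number of arrays. The fit was tested on simulated data.

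Members and gene lists were chosen with earlier results of these data known. Named genes were all granins, up to 4 members of each list with the smallest unadjusted p in a comparison, and the 6 genes most like each granin. Probe sequences and proteins were not used here, and neither was a Chga promoter.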

Additional observations from a re-analysis of the deposited data

Results flagged for a closer look

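Chgb in HZ saline replicate 2 at 7 days had a log2 value of 12.01, apart from the other 3 rats of its group, which had 11.86 to 11.88. Its gap to the nearest rat was 0.861 of the group's range, above Dixon's critical value for 4 values. It was the 1 such case among 30 groups of 4 values examined for the 5 granins, and chance flags about 1 in 20 groups.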

How the results depend on the processing

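Of the log2 differences of granin probes, 588 values under other ways of processing counted as unchanged, of which 581 kept their direction and 7 turned. For GH minus saline, and for the change of a difference between the time points, this meant the same sign and call. A kept direction there followed from the rule. Chgb with position counted so, though GH minus saline went from -0.015 to -0.147 at 30 days (residual SD 0.085). For the other comparisons it meant a move smaller than the spread between replicates. Those that turned were all of the latter kind. They were dw/dw GH minus HZ at 7 days for Chga and Chgb, and 30 minus 7 days in HZ rats for Scg2 (from 0.117 to -0.003 in the series matrix). The rest were dwarf minus HZ for Scg3 (3 values) and Scg5 (from -0.058 to 0.046 with position). Another 36 values of that kind moved by more. Position as a covariate was a linear trend along the slide, in large part shared with the blocks of groups. With it, dw/dw saline minus HZ saline for Chgb was 0.233 at 7 days (SE 0.118 in place of 0.058), 0.246 at 30 days and 0.24 averaged. In the same order it was 0.097, -0.032 and 0.032 for Scg3, and 0.064, 0.059 and 0.061 for Scg5. All dwarf minus all HZ was 0.171 for Chgb, and dw/dw GH minus HZ was 0.108 at 7 days and 0.099 at 30 days. In the series matrix, 30 minus 7 days, averaged and then for HZ, dw/dw saline and dw/dw GH, was 0.126, 0.105, 0.137 and 0.138 for Chga, -0.073, -0.077, -0.06 and -0.083 for Chgb, -0.204, -0.118, -0.245 and -0.248 for Scg3, and 0.263, 0.307, 0.305 and 0.178 for Scg5. There dw/dw saline minus HZ for Chga was 0.081 at 30 days and 0.065 averaged. Without background correction, 30 minus 7 days for Chga was 0.13, 0.118, 0.137 and 0.136 in the same order. With median scaling Scg3 gave 0.125 for dw/dw GH minus HZ at 7 days, and 0.1 in HZ and -0.011 in dw/dw saline rats for 30 minus 7 days.

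The GH differences, none of which passed the threshold, turned sign for Chgb with position as a covariate (-0.125 at 7 days), array weights (-0.01 at 7 days) and median scaling (0.001 at 30 days, 0.039 averaged). They also turned for Scg2 with array weights (0.019 at 30 days), for Scg3 with median scaling (0.066 at 7 days, 0.027 averaged) and for Scg5 with position (-0.031 averaged). With 1 array left out, GH minus saline ran from -0.025 to 0.006 at 7 days and from -0.035 to 0.006 at 30 days for Chga. For Chgb it ran from -0.063 to 0.05 at 7 days, -0.039 to 0.009 at 30 days and -0.039 to 0.018 averaged, and for Scg2 from -0.12 to 0.046, -0.065 to 0.056 and -0.065 to 0.018. For Scg3 at 7 days it ran from -0.038 to 2.136e-04 and for Scg5 at 30 days from -0.065 to 0.026. The cause of these moves was not tested.

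The number of probes past the threshold for dw/dw saline against HZ was 0. It became 1 with the replicate block at 7 days, and 1 with the series matrix and 1 with array weights at 30 days. Averaged over both time points it became 10 without background correction, 13 with probes detected on all arrays, 17 with array weights and 10 with the replicate block. All dwarf against all HZ gave 16, 12 and 11 in place of 0 without background correction, with probes detected on all arrays and with the replicate block. With 1 array left out, the counts ran from 0 to 1 for each comparison at 7 days, from 0 to 5 for dw/dw saline against HZ at 30 days and from 0 to 43 averaged, from 0 to 34 for all dwarf against all HZ, and from 0 to 2 for GH averaged. The values 5, 43 and 34 came without dw/dw saline replicate 1 of the 30-day rats. For 30 against 7 days the count of 1806 averaged over groups became 196 with median scaling and 5224 in the series matrix. Median scaling gave 3, 0 and 8 for HZ, dw/dw saline and dw/dw GH rats in place of 264, 245 and 100, the series matrix 1954, 1656 and 1369, and no filter 93, 134 and 42. Array weights gave 142 for HZ and 256 for dw/dw GH rats. With 1 array left out, these counts ran from 42 (without HZ replicate 1 at 30 days) to 299, from 96 (without dw/dw saline replicate 2 at 30 days) to 281, and from 34 (without dw/dw GH replicate 2 at 7 days) to 117. The replicate block changed no call of a granin in the tested comparisons. The labels do not say what a replicate number marks. Of 24 same-numbered pairs on a slide 10 had correlations of deviations over 0.1 (range -0.28 to 0.49). All 4 pairs of HZ with GH-treated dwarfs did so at 7 days (0.15 to 0.36) and 3 of 4 at 30 days, while the other 4 pairs of groups had 0 or 1 such pair, and 10 of 24 arrays were most like a same-numbered one. The rats were therefore not treated as paired. Chga lies near background, which limits what its signal can show.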
